A study of Mus musculus with 2 samples.

Results

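The heavy chain V genes are the variable gene segments of the immunoglobulin heavy chain locus. They were taken as every Ensembl entry whose GENCODE mouse symbol begins with Ighv and that has a row in the gene tables of both libraries. This gave 175 entries of 43346 Ensembl entries in all. They carry 173 symbols, because Ighv1-13 and Ighv5-8 each have a second entry on the other strand. The annotation types 113 of them as V genes, 60 as V pseudogenes and 2 as IG_LV_gene, the type of the 2 entries on the other strand. A further 10 Ighv genes of the annotation have no row and were not analysed here. PolyA mRNA of CH12.LX was sequenced single-end in both libraries. CH12.LX is a mouse line that grew from a lymphoma of B cells, of strain B10.H-2aH-4bp/Wts and recorded as female. They are biological replicates 2 and 1 from separate biosamples of this 1 line and form 1 group, with no treatment and no second condition, so the spread between these 2 libraries is all the replication there is.

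A developing B cell joins 1 V segment to a D and a J segment on a chromosome, and the joined exon is spliced to a constant region downstream. The promoter of the chosen V segment then drives the heavy chain mRNA, while most other V segments stay in germline form or are deleted with the DNA between. V segments fall into families by sequence, and the number before the hyphen in the symbol names the family. CH12.LX is widely used to study class switching, the exchange of the IgM constant region for another, in its case mostly IgA.

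Depth was 25701469 counts in replicate 2 and 22986654 in replicate 1. The 175 entries took 15993 counts (0.0622% of the library) in replicate 2 and 11322 counts (0.0493%) in replicate 1. All 6 B cell markers were detected, with summed levels of 1393 TPM in replicate 2 and 1272 TPM in replicate 1, and so were all 5 plasma cell markers, at 1051 TPM in replicate 2 and 1188 TPM in replicate 1. TPM is a level corrected for length and scaled to one total per library, and detected means at least 1 TPM in both libraries. Most of the plasma cell sum came from Mzb1, at 694 TPM in replicate 2 and 810 TPM in replicate 1, and Jchain, at 250 and 284 TPM. Prdm1 stood at 9.88 TPM in replicate 2 and 9.64 TPM in replicate 1, and Sdc1 at only 1.23 and 1.59 TPM. The T cell list summed to 5.34 TPM in replicate 2 and 3.89 TPM in replicate 1 with 2 of 5 detected, the myeloid list to 3.33 TPM in replicate 2 and 4.13 TPM in replicate 1 with 2 of 4 detected, and the erythroid list to 0.15 TPM in replicate 2 and 0.17 TPM in replicate 1 with 0 of 3 detected. The T cell genes detected were Cd3g, at 2.11 TPM in replicate 2 and 1.69 TPM in replicate 1, and Cd3d, at 1.63 TPM in replicate 2 and 1.14 TPM in replicate 1, while Cd3e, another chain of the same receptor complex, stood at 0.08 TPM in replicate 2 and 0.04 TPM in replicate 1. The myeloid genes detected were Itgam, at 1.24 TPM in replicate 2 and 1.79 TPM in replicate 1, and Adgre1, at 1.34 TPM in replicate 2 and 1.64 TPM in replicate 1, while Lyz2 stood at 0.09 TPM in replicate 2 and 0.05 TPM in replicate 1. The globin gene Hbb-bs had 0 expected counts in both libraries, with a posterior SD of 7.18 counts in replicate 2 and 6.94 counts in replicate 1.

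The gene that led the family by level in both libraries was Ighv1-53 (ENSMUSG00000093894), at chr12:115158403-115158835 on the minus strand of GRCm38. Its annotated transcript has 351 bases in 2 exons. Exon 1 (chr12:115158790-115158835, 46 bases) codes for most of the leader peptide, and exon 2 (chr12:115158403-115158707, 305 bases) for the rest of the leader and the variable domain up to the point of joining. Exon 2 is printed below from its first base over 254 bases (positions 47 to 300 of the transcript, counted from 1 at its 5′ end) because nearly all V counts fell on this gene. Capitals mark the 170 bases covered by a 36-base word found in no other annotated gene, which form 2 runs, at positions 47 to 125 and 171 to 261.

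Ighv1-53: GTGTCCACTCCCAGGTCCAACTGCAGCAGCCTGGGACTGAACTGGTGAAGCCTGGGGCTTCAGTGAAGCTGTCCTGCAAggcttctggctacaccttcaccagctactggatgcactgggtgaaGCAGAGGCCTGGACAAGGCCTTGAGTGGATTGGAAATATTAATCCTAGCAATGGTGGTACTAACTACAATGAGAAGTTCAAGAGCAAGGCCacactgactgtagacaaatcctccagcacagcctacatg

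A read that falls in the lower case stretches can match other V genes as well. The last 120 bases of the printed stretch are shown again with the matching stretch of 8 other members, from GENCODE M21 transcripts, to let them be compared base by base. Capitals mark a base that differs from Ighv1-53 in the ungapped match. For Ighv8-6 this match is partly out of register, so its row cannot be read base by base throughout.

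Ighv1-53: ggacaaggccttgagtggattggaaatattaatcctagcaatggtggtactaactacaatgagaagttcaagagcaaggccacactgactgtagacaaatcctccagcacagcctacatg

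Ighv1-55: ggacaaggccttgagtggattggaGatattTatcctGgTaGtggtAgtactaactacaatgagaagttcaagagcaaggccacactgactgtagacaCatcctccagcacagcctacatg

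Ighv1-54: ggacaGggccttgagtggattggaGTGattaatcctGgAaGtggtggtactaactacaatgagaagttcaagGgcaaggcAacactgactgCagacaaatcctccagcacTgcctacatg

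Ighv1-74: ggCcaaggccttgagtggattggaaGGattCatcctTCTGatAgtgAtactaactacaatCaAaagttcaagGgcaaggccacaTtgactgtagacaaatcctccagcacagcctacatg

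Ighv1-80: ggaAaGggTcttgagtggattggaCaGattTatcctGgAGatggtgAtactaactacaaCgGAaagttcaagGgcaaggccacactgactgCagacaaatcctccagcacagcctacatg

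Ighv1-12: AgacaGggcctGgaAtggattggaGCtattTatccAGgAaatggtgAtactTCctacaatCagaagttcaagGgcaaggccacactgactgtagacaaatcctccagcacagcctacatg

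Ighv1-69: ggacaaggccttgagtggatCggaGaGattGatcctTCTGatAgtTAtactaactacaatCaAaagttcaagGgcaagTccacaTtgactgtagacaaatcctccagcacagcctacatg

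Ighv1-52: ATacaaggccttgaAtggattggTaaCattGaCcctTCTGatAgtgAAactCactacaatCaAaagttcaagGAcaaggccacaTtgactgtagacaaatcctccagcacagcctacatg

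Ighv8-6: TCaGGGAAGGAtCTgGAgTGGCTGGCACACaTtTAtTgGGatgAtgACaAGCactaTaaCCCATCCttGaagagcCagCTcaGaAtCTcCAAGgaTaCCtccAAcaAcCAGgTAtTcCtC

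Within these 120 bases Ighv1-55 differed from Ighv1-53 at 7 positions, Ighv1-54 at 11, Ighv1-74 at 14, Ighv1-80 and Ighv1-12 at 15 each, Ighv1-69 at 16 and Ighv1-52 at 20. Ighv8-6, of another family, differed at 72 in the ungapped match. The bases gagtgg of Ighv1-53 also occur in the Ighv8-6 stretch, but further along, so the match is out of register there. Some bases that the genes have in common are thus marked as different. A match with gaps was not made, so 72 may overstate the divergence of Ighv8-6. Ighv1-69 was added to the set after its values were seen. The Ighv1-12 stretch is from its 294-base transcript, which had 0 counts in both libraries, and the 215-base transcript that took all of its counts lacks the first part of this stretch.

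Expression was concentrated on 1 segment. Ighv1-53 stood at 2792 TPM in replicate 2 and 2186 TPM in replicate 1 (2489 ± 428, SD, n = 2). The level rested on 15818 expected counts in replicate 2 and 11140 in replicate 1. It held 98.98% of the V family's TPM in replicate 2 and 98.49% in replicate 1 (98.7% ± 0.350, SD, n = 2). Of V counts it held 98.9% in replicate 2, with a Wilson 95% interval of 98.7 to 99.1, and 98.4% in replicate 1, with an interval of 98.1 to 98.6. The deposited posterior SD, the uncertainty left by reads that match several genes, was 5.99 counts (0.0379% of the deposited posterior mean count) in replicate 2 and 7.35 counts (0.0660%) in replicate 1. Its TPM was 170 times that of the next V gene in replicate 2 and 143 times in replicate 1.

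Against the constant regions the level of Ighv1-53 was of the same order. The 8 constant region genes summed to 5329 TPM in replicate 2 and 5026 TPM in replicate 1, and Ighv1-53 was 0.524 of that sum in replicate 2 and 0.435 in replicate 1 (0.480 ± 0.0629, SD, n = 2). Igha, the constant region of IgA, held 4012 TPM in replicate 2 and 3871 TPM in replicate 1, and Ighm, that of IgM, 1261 TPM in replicate 2 and 1107 TPM in replicate 1. The annotated V transcript ends before D and J and holds no constant region, so these per-length levels come from different stretches of the mRNA.

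**Figure D1:**
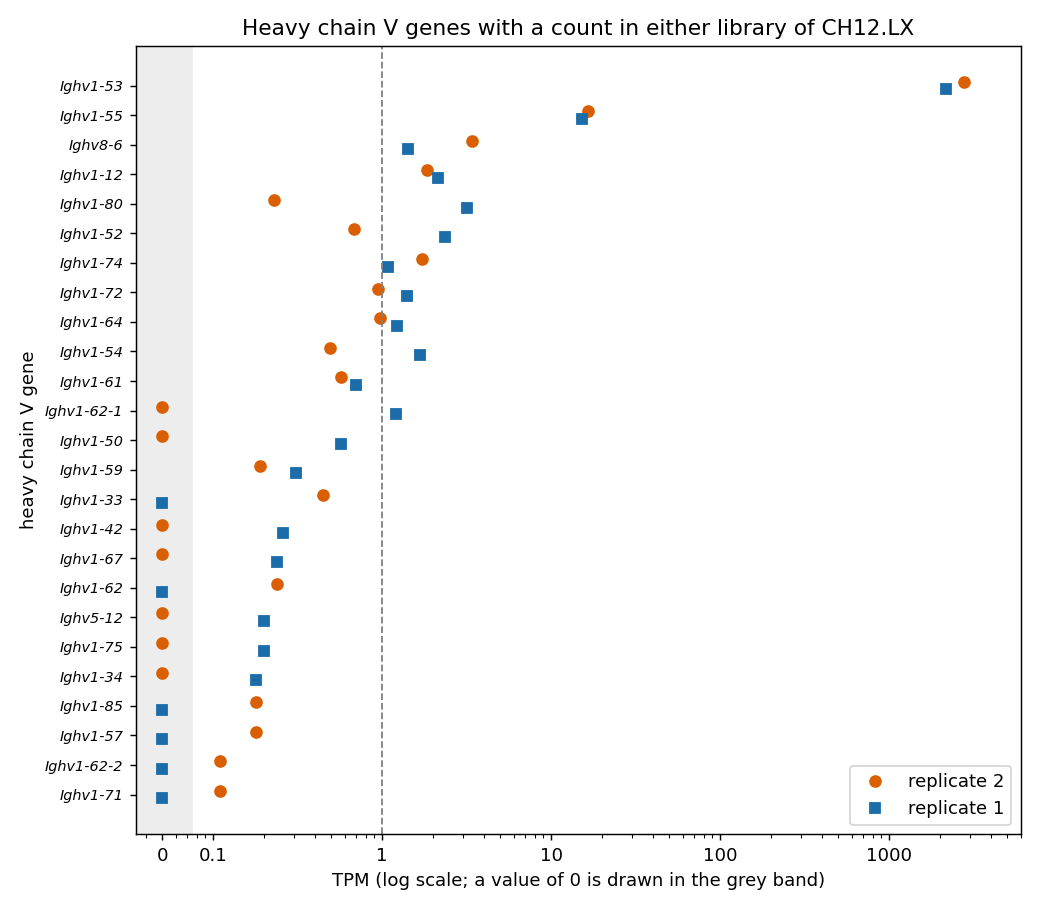
TPM of each heavy chain V gene with a count in either library, on a log axis, with 1 orange circle for replicate 2 and 1 blue square for replicate 1. The dashed line marks 1 TPM and values of 0 lie in the grey band; Ighv1-53 has a mean of 2489 TPM, Ighv1-55 one of 15.9 TPM, and all others at 3.40 TPM or less.

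Most other members had no count at this depth. A count in either library was found for 25 of 175 members (14.3%), against 52% of all 42462 named genes. Of these, 12 had a count in both libraries, 6 in replicate 2 only and 7 in replicate 1 only. The remaining 150 (85.7%) had none. A count of 0 allows up to 3 counts in a library, which for these 150 members corresponds to a median of 0.531 TPM in replicate 2 (0.391 to 2.06) and 0.591 TPM in replicate 1 (0.435 to 2.29). The entries are short, 120 to 461 bases with a median of 350, and the floor is highest for the shortest. Among the entries typed as V genes 22 of 113 had a count, and among pseudogenes 3 of 60. Both IG_LV_gene entries were at 0.

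Only 5 members (2.86%) were detected, against 27.8% of all named genes. They were Ighv1-53, Ighv1-55, Ighv8-6, Ighv1-12 and Ighv1-74. The kappa light chain V genes gave 5 detected of 103, with 29 of 103 (28.2%) having a count. The members other than Ighv1-53 summed to 175 counts and 28.8 TPM in replicate 2, and to 182 counts and 33.6 TPM in replicate 1. At 1 TPM or more stood 5 members in replicate 2 and 11 in replicate 1, although replicate 2 was the deeper library. With the deposited posterior mean TPM in place of TPM 8 members were detected, and with posterior SD held to 5% of the posterior mean count 3 were, Ighv1-12 and Ighv1-74 being left out. Posterior mean TPM is above 0 even for members with no count, at 0.12 to 0.65 in replicate 2 and 0.14 to 0.71 in replicate 1.

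By family, counts were found in V1, V8 and V5 only, and the other 13 of 16 families had no count in either library. V1, the largest family, had a count for 23 of 86 members, and the 89 members of all other families for 2. Outside Ighv1-53, V1 held 88.2% of the V TPM in replicate 2 and 95.2% in replicate 1 (91.7% ± 4.93, SD, n = 2). The families at 0 include V2 with 11 members and V6 with 7, and V5 with 22 members had 1 count in all.

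Ighv1-55 (chr12:115208095-115208591) was second in level. It had 112.45 counts in replicate 2 and 93.61 in replicate 1, or 16.46 TPM in replicate 2 and 15.24 TPM in replicate 1 (15.9 ± 0.863, SD, n = 2). It alone held 64.2% of the counts outside Ighv1-53 in replicate 2 and 51.5% in replicate 1. Its posterior SD was 3.37 counts in replicate 2 and 3.40 counts in replicate 1. Of its 36-base words 49.2% occur in no other gene, and 21.3% occur in Ighv1-53 (34.8% of its 25-base words and 6.28% of its 50-base words).

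Ighv8-6 (chr12:115165777-115166220) was the highest member outside V1. It had 17 counts in replicate 2 and 7 in replicate 1, or 3.40 TPM in replicate 2 and 1.43 TPM in replicate 1 (2.42 ± 1.39, SD, n = 2). It shares no 36-base word with Ighv1-53, and its posterior SD was 0.63 counts in replicate 2 and 0 in replicate 1. An annotated transcript of 301 bases, which has the variable exon alone, took 12.05 counts in replicate 2 and 1.81 in replicate 1. A 354-base transcript with the leader exon took 4.95 counts in replicate 2 and 5.19 in replicate 1. The share of the gene's expression on the shorter transcript, as deposited, was thus 74.57% in replicate 2 and 29.51% in replicate 1. The shorter transcript (chr12:115165777-115166077) lies almost wholly within the variable exon of the longer one (chr12:115165781-115166088). Reads within the shared bases fit both, so this split of few counts is uncertain. The posterior SD given here is for the gene and does not cover the split.

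The next members lay near 1 to 2 TPM with few counts. Ighv1-12 had 5.91 counts (1.85 TPM) in replicate 2 and 6.11 counts (2.13 TPM) in replicate 1, all placed on its shortest transcript, of 215 bases. Ighv1-74 had 9.63 counts (1.72 TPM) in replicate 2 and 5.43 counts (1.08 TPM) in replicate 1. In TPM Ighv1-12 lay above Ighv1-74 in both libraries, and the levels of Ighv8-6 overlapped those of both. In counts Ighv1-12 lay below Ighv1-74 in replicate 2 and above it in replicate 1. For Ighv1-12 the posterior SD was 2.46 counts in replicate 2 and 1.91 counts in replicate 1, and for Ighv1-74 it was 2.00 counts in replicate 2 and 2.03 counts in replicate 1.

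Other V1 members crossed 1 TPM in 1 library only. Ighv1-80 had 1.31 counts (0.23 TPM) in replicate 2 and 16.18 counts (3.18 TPM) in replicate 1. Ighv1-52 had 3.82 counts (0.68 TPM) in replicate 2 and 11.94 counts (2.37 TPM) in replicate 1. For both, replicate 1 was the high library. Ighv1-54, which shares 4.09% of its 36-base words with Ighv1-53 and has 79.8% found in no other gene, had 3.03 counts (0.49 TPM) in replicate 2 and 9.29 counts (1.68 TPM) in replicate 1. Its posterior SD, 0.18 counts in replicate 2 and 0.68 counts in replicate 1, was small beside that of Ighv1-72, which was 2.46 counts in replicate 2 and 2.82 counts in replicate 1. Ighv1-72, named after its values were seen, has only 3.32% of its 36-base words to itself, and had 5.32 counts in replicate 2 and 7.21 in replicate 1. This share is for its GENCODE M21 transcript, a later version than the 351-base transcript that was counted. The posterior mean counts of Ighv1-72 were lower, 3.89 in replicate 2 and 4.70 in replicate 1. Over its 3 transcripts together, Ighv1-12 also has 79.8% of its 36-base words found in no other gene. All its counts lay on the 215-base transcript, whose own share was not computed. The 79.8% of Ighv1-12 is therefore not like for like with that of Ighv1-54. The posterior SD of Ighv1-12 was 36.4% of the posterior mean count in replicate 2 and 28.8% in replicate 1. For Ighv1-54 these were 5.92% in replicate 2 and 7.41% in replicate 1.

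Over the 25 members with a count, 16 had a posterior SD above 5% of the posterior mean count in at least 1 library, and 14 had fewer than 5 counts in each library. The pseudogenes with a count were Ighv1-33 with 2.51 counts in replicate 2 and 0 in replicate 1, Ighv1-62 with 1.33 in replicate 2 and 0 in replicate 1, and Ighv1-57 with 1 in replicate 2 and 0 in replicate 1. All 3 had their expected count in replicate 2 alone. The posterior mean count in replicate 1 was 0.29 (posterior SD 0.50) for Ighv1-33 and 0.17 (posterior SD 0.44) for Ighv1-62, and 0 for Ighv1-57. The single V5 member with a count was Ighv5-12, with 0 counts in replicate 2 and 1 in replicate 1.

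Position along the locus was then examined. The V entries span chr12:113572927-116000461, or 2428 kb, and lie on the far side of the D and J segments from the constant regions. Ighv5-1 is the nearest, with its 5′ end 151 kb from that of Ighm, and had 0 counts in both libraries. Ighv1-85 is the farthest, at 2578 kb, and had 1 count in replicate 2 and 0 in replicate 1. Ighv1-53 lies 1736 kb from Ighm and is number 138 of 175 counted from the constant region.

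**Figure D2:**
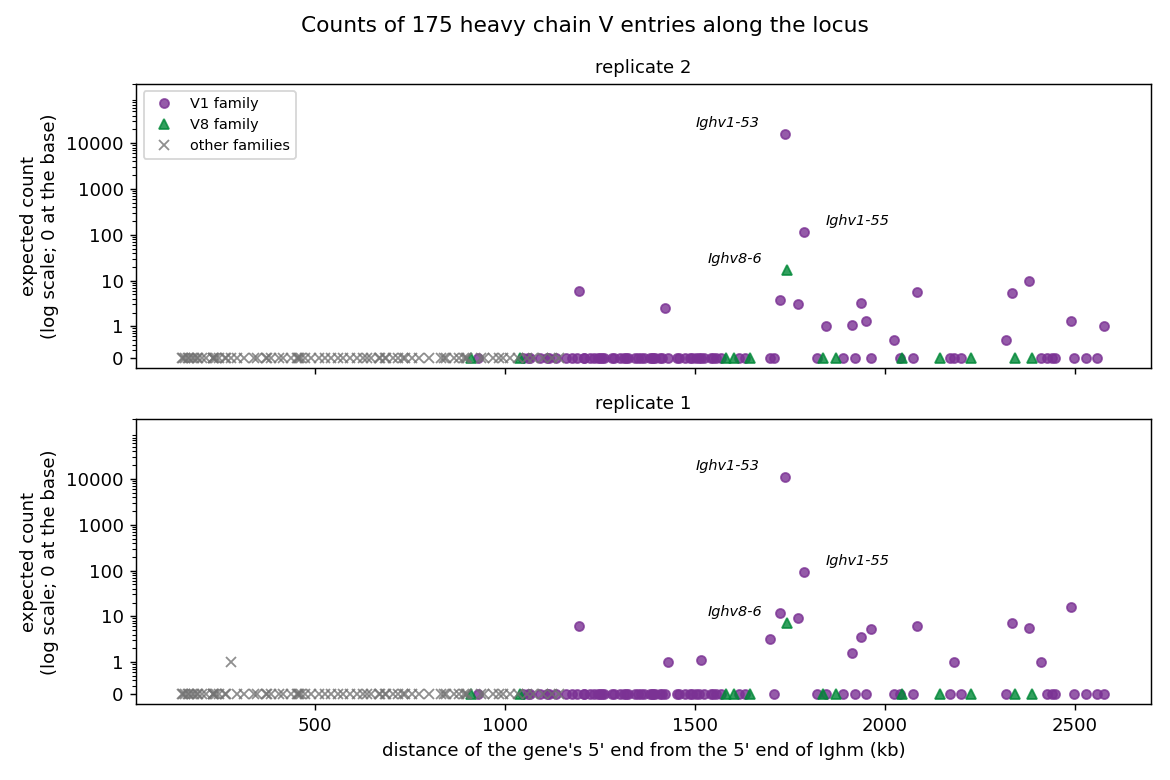
Expected count of all 175 entries, on a log axis with 0 at the base, against the distance in kb from the 5′ end of Ighm, with replicate 2 above and replicate 1 below; circles are V1, triangles V8 and crosses other families. Ighv1-53 stands alone at 11140 counts or more in each library, and most other members with a count lie beyond it.

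In 4 windows of equal width from the constant region outward, a count was found for 1 of 54, 1 of 53, 14 of 44 and 9 of 24 members. V1 has 0, 29, 38 and 19 members in these windows. Without Ighv1-53 their summed counts were 0, 5.91, 145.46 and 23.77 in replicate 2, and 1, 6.11, 137.7 and 37.11 in replicate 1. The window nearest the constant region, which holds no V1 member, thus gave 1 count over both libraries, that of Ighv5-12. In the second window the whole sum was Ighv1-12.

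The immediate neighbours of Ighv1-53 were mixed. On the far side Ighv8-6 lies 6.94 kb away, Ighv1-54 34.8 kb and Ighv1-55 49.3 kb, all with counts in both libraries, and Ighv1-56 and Ighv8-7 follow with 0. Toward the constant region Ighv1-52 lies 12.5 kb away with counts in both libraries. Of the next members on that side, Ighv1-51, Ighv8-5 and Ighv1-49 were at 0, and Ighv1-50 had 0 counts in replicate 2 and 3.27 in replicate 1.

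Sequence shared with Ighv1-53 was measured as the share of a member's 36-base words that Ighv1-53 also holds. It could be computed for 174 of 175 members. Besides Ighv1-53 itself, 29 share at least 1 such word, all in V1, and 144 share none. Among the 29 that share, 17 had a count, and they held 89.2% of the counts outside Ighv1-53 in replicate 2 and 94.0% in replicate 1. Among the 144 that share none, 7 had a count, with 19 counts in replicate 2 and 11 in replicate 1, of which Ighv8-6 held 17 in replicate 2 and 7 in replicate 1. At this word length Ighv1-69 shares the most, 35.5%, and had 0 expected counts in both libraries, whereas Ighv1-55 shares 21.3%. With 25-base words Ighv1-62, a pseudogene with a count in replicate 2, shares the most, 48.8%, against 44.4% for Ighv1-69. The posterior mean count of Ighv1-69 was 1.24 (posterior SD 1.37) in replicate 2 and 0.55 (posterior SD 0.91) in replicate 1, so its 0 is 1 of 2 deposited estimates. The number of sharing members with a count was 21 with 25-base words and 11 with 50-base words, in place of 17. Whether reads of Ighv1-53 were placed on its relatives was not tested.

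**Figure D3:**
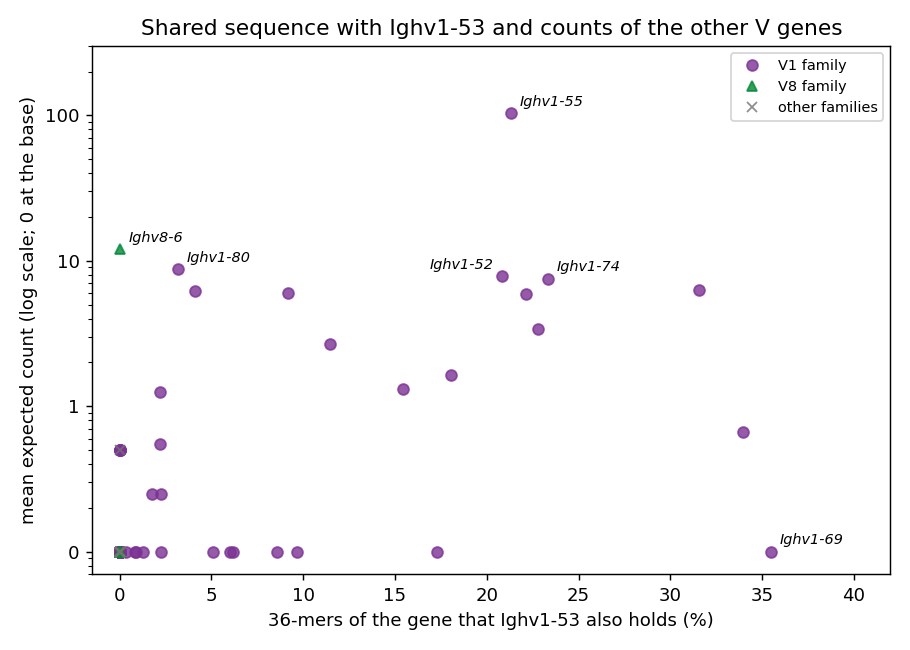
Mean expected count over both libraries, on a log axis with 0 at the base, against the percent of a gene's 36-base words that Ighv1-53 also holds, with 1 point per V entry other than Ighv1-53. Ighv8-6 has counts at 0% shared, and Ighv1-69 has no expected count at 35.5%.

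A split at Ighv1-53 itself was made after the values were seen. Of the 37 members beyond it, away from the constant region, 17 (45.9%) had a count, with 162.9 counts in replicate 2 and 157.5 in replicate 1. Ighv1-55 alone held 112.45 of these counts in replicate 2 and 93.61 in replicate 1. Of the 137 members between Ighv1-53 and the constant region, 7 (5.11%) had a count. They held 12.24 counts in replicate 2 and 24.42 in replicate 1. Within V1 the counts were 16 of 29 members beyond and 6 of 56 between, and in the other families 1 of 8 and 1 of 81. Shared sequence differed between the sides too, with a median of 5.06% for V1 members beyond and 0% for V1 members between. Among V1 members that share a 36-base word with it, 12 of 20 beyond and 5 of 9 between had a count. Among V1 members that share none, 4 of 9 beyond and 1 of 47 between had one, and none of these had more than 1 count in a library. The part of sequence likeness in the difference between the sides was not tested.

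The libraries were compared gene by gene with a two-sided exact binomial test over all 15340 genes with at least 10 counts in sum, adjusted by Benjamini-Hochberg at 0.05. The test holds counting error only and compares 2 libraries, not conditions. It called 30.5% of all genes, 14.1% higher and 16.4% lower in replicate 2. Of the 10 V members that could be tested, 2 were called, 1 in each direction, and 3 had an unadjusted p under 0.05. Their median log2 ratio of replicate 2 over replicate 1 was -0.13, beside -0.0030 over all genes tested.

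Ighv1-53 was higher in replicate 2, with a log2 ratio of 0.36 (95% interval 0.33 to 0.40; exact binomial adjusted p = 1.35e-91), or 1.29-fold. Ighv1-80 was lower in replicate 2, with a log2 ratio of -3.58 (-9.53 to -1.46; exact binomial adjusted p = 0.000498), from 1 rounded count in replicate 2 and 16 in replicate 1. With posterior mean counts this ratio was -2.85 (exact binomial adjusted p = 0.00257), and the posterior SD of 1.46 counts in replicate 2 exceeded the expected count of 1.31. Ighv1-52 did not pass (-1.60, exact binomial adjusted p = 0.115). Ighv1-55 had a log2 ratio of 0.11 (-0.30 to 0.52; exact binomial adjusted p = 0.792) and Ighv8-6 one of 1.09 (-0.20 to 2.65; exact binomial adjusted p = 0.228). The spread between libraries was also estimated over all genes, as 1 value for all of them, a biological coefficient of variation of 19.8%. It came from the same 2 libraries that are compared, so the differences under test also set the error. With this spread, edgeR's exact test called 2.54% of genes. Of the members it called Ighv1-80 (adjusted p = 0.0359, edgeR exact test) and not Ighv1-53 (adjusted p = 1).

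**Figure D4:**
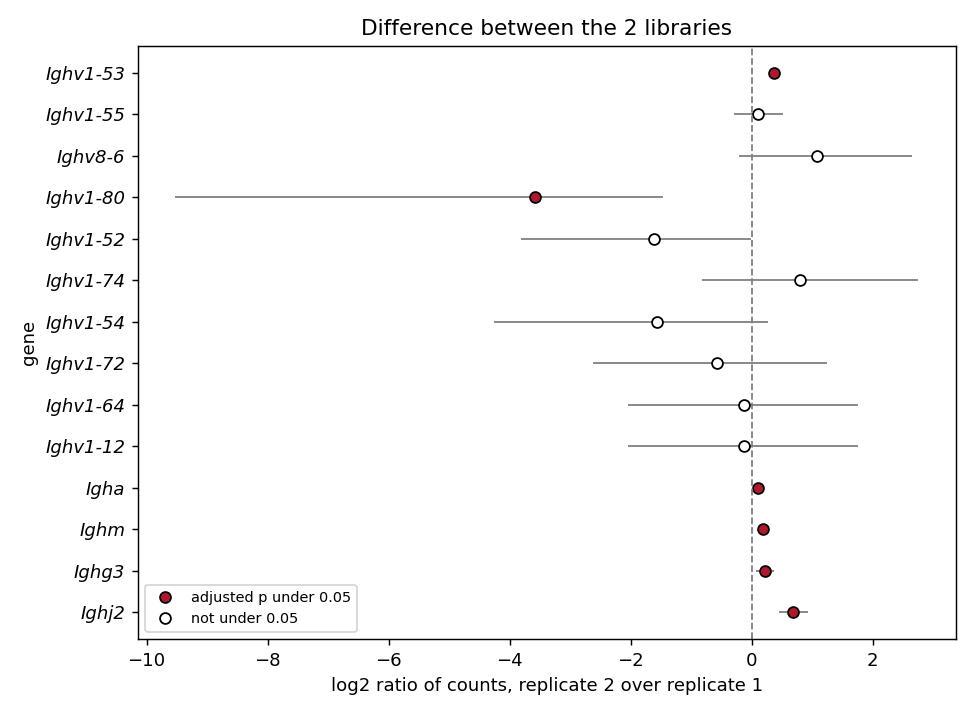
Log2 ratio of counts, replicate 2 over replicate 1, with its 95% interval for counting error, for the 10 V members tested and for Igha, Ighm, Ighg3 and Ighj2. Filled points passed the exact binomial test at an adjusted p of 0.05; Ighv1-80 lies farthest from 0, at -3.58, with the widest interval.

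Other parts of the heavy chain locus were read from a list of 34 entries. Of the 13 tested by the exact binomial test, 4 were higher in replicate 2 and 1 was lower, against 14.1% higher and 16.4% lower over all genes. With edgeR's exact test none of these 5 passed, with an adjusted p of 0.665 for Ighj3 and 1 for the other 4. The higher ones were the constant regions Igha at a log2 ratio of 0.10, Ighm at 0.18 and Ighg3 at 0.22, and the joining segment Ighj2 at 0.69 (exact binomial adjusted p = 5.57e-08). Ighj3 was lower, with 8 counts in replicate 2 and 23 in replicate 1. The median over the 13 was 0.19. The J segments, which supply the end of the variable domain, were led by Ighj2 with 403 counts in replicate 2 and 226 in replicate 1, or 94.2% of J counts in replicate 2 and 86.3% in replicate 1. As deposited, J entries have lengths of 48 to 54 bases and effective lengths of 8 to 14, so their TPM is not given. The annotated span of Ighj2 (chr12:113429468-113429567) is longer than its deposited length, 48.38 bases in replicate 1. The J shares are of counts, with no correction for length. All 20 D entries, 10 to 29 bases long, have an effective length of 0 and no counts, so nothing can be read from them.

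Genes flanking the V region were also read. Adam6b, which lies among the outermost D segments, had 27.47 counts in replicate 2 and 37 in replicate 1. Adam6a, between them and the first V segment, had 1.53 counts in replicate 2 and 0 in replicate 1. Zfp386, a zinc finger gene past the far end, stood at 17.2 TPM in replicate 2 and 13.6 TPM in replicate 1, above every V member except Ighv1-53 in replicate 2 and above all but Ighv1-53 and Ighv1-55 in replicate 1. Rag1 and Rag2, the recombinase that joins the segments, had 0 counts in both libraries. For scale, the kappa light chain V gene Igkv10-96 stood at 4716 TPM in replicate 2 and 5011 TPM in replicate 1.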

How the data were processed

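Single-end polyA mRNA reads of 2 CH12.LX libraries were quantified by the authors on mm10 with GENCODE M4, per the file headers and deposited notes. The sources used here name neither aligner nor quantifier, and say nothing of strand. Expected counts, as deposited, can be fractional, because a read that fits several genes is shared out. TPM and FPKM, as deposited, allow for length and library depth. For transcripts the authors also give the percent of the gene's total, per the file headers. Effective length equalled length minus 40 bases. Per the labels, the replicates are separate biosamples.

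Names, types, coordinates and transcript sequences came from GENCODE M21 (GRCm38, identical to mm10), matched by Ensembl identifier. Of 43346 entries 42462 matched. They are reference alleles, and bases of the line itself were not analysed here. Some M21 transcripts, that of Ighv1-72 among them, are later versions than those counted with M4, so the shares of words can differ from those of the counted sequences. Words were sought in all M21 transcripts, whether or not the gene has a row in the gene tables. Ighv1-53 shares a 36-base word with 34 other genes, 29 of them members. Words found in no other gene thus need not be those that were unambiguous in the counting. The 26248 entries with only a number (0.0539% of counts in replicate 2, 0.0426% in replicate 1) stayed out of totals and tests.

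Expected counts were rounded for tests. Each gene with at least 10 counts was tested by a two-sided exact binomial test against TMM effective library sizes (edgeR 4.0.16, R 4.3.3), with Benjamini-Hochberg adjustment. Ratios used a pseudocount of 0.5. DESeq2 1.42.0 size factors and edgeR's exact test with a common dispersion were alternatives. Checked on data simulated for replicate 2 against replicate 1 (15340 genes, counting error only), the binomial test called 63 of 100 genes at 1.5-fold, 71 of 100 at 2-fold and 7 of 15140 unchanged. Intervals and floors (3 counts) cover counting error only, since reads are not independent molecules.

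The members and lists were chosen with earlier results of these data known. Named are the leading member, every detected member, the 3 highest per family with a count, 5 neighbours on either side of the leading gene, both ends of the locus, members past the binomial test and the 3 highest pseudogenes. Others are said to be outside this rule. Octamer and recombination signal motifs were not searched.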

Additional observations from a re-analysis of the deposited data

How the results depend on the processing

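The number of detected members was 5. It was 8 with the deposited posterior means and 3 with a posterior SD of at most 5% of the posterior mean count. With FPKM in place of TPM it was 4. It was 9 at 0.5 TPM, 2 at 5 TPM and 2 with at least 10 counts in both libraries. Without replicate 1 it was 5, and without replicate 2 it was 11. The share of V TPM held by Ighv1-53 was 98.7%, and it was 97.0% with posterior means, 99.2% with a posterior SD of at most 5%, and 98.5% to 99.0% when either replicate was left out. The number of members with no count was 150, and it was 133 with posterior mean counts, 91 among entries typed as V genes and 156 to 157 when either replicate was left out. The V1 share outside Ighv1-53 was 91.7%, and it was 67.8% with posterior means and 88.2% to 95.2% when either replicate was left out. The posterior means give each member at 0 counts 0.12 to 0.65 TPM in replicate 2 and 0.14 to 0.71 TPM in replicate 1, 33.09 and 36.41 TPM in sum. The number of members differing between the libraries was 2 and fell to 1 with edgeR's exact test. Of the alternatives for these results, 11 moved a count by over 1.5 times or a share by over 1 SD, and 22 did not. With 2 libraries, a share without either one always lies within 1 SD of their mean. Other alternatives among the 22 could not move either. FPKM differs from TPM by 1 factor per library, so it leaves shares unchanged but for rounding. The number with no count used the same counts under FPKM, and the posterior SD setting kept every member without a count. The log2 ratio of Ighv1-80 was -3.58, and it was -2.85 with posterior mean counts. With 25, 41 and 50 base words, the second added after seeing the data, 66, 25 and 17 members shared a word with Ighv1-53 in place of 29, and 21, 17 and 11 of them had a count in place of 17. The share of words of Ighv1-55 found in Ighv1-53 was 34.8%, 14.9% and 6.28% in place of 21.3%, and that of Ighv1-54 was 9.07%, 2.67% and 0% in place of 4.09%. No paired analysis was possible because the libraries form 1 group.

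Of the 25 members with a count, 14 had under 5 counts in each library, so their levels are imprecise.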
